A study of Mus musculus with 12 samples.

Results

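The values described here are those of 9 transcription factors that direct the formation of myeloid blood cells, *Spi1*, *Runx1*, *Elk3*, *Cebpa*, *Cebpb*, *Cebpe*, *Gfi1*, *Irf8* and *Maf*. They were chosen by symbol from a table of read counts for 54532 genes, and each symbol matched 1 gene. All 9 passed the filter on low counts that 14894 genes passed. IPA is indole-3-propionic acid, a metabolite that gut bacteria make from tryptophan. The cultures were set up to ask how IPA acts on bone marrow cells while they mature into immunosuppressive myeloid cells.

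Blood stem cells become myeloid cells under a small set of transcription factors that act in combination and in proportion to each other. PU.1, the protein of *Spi1*, and C/EBPα open the myeloid program. C/EBPε and the repressor GFI1 then carry cells towards neutrophils, whereas IRF8 carries them towards monocytes and dendritic cells, and IRF8 restrains C/EBPα in their shared progenitors. RUNX1 is needed for the first blood stem cells and later works beside PU.1, C/EBPβ drives the emergency production of granulocytes and the suppressive program of myeloid cells, and c-MAF belongs to mature macrophages. ELK3 is an ETS factor that represses serum response genes until growth signals reach it.

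Bone marrow cells of C57BL/6 mice of wild-type genotype (WT) were the source of the 12 libraries. All cultures received GM-CSF and IL-6 and were collected on day 5. There were 4 libraries from cultures with vehicle (DMSO), 4 with 10 µM IPA and 4 with 50 µM IPA, and vehicle or IPA was given again when the medium was changed. The labels do not say that the libraries of a group came from separate mice, so that p-values measure the spread between these libraries, which may be technical. According to the study, the higher dose lowered the viability of the cells. The cells were not sorted, and a lower level of a factor may mean fewer cells that carry it or less of its RNA per cell, which cannot be told apart in bulk RNA. The same vehicle libraries served the comparisons of both doses.

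Read counts summed to totals between 20451312 and 28038612 per library. The cultures held markers of several myeloid types. In each library with vehicle the levels of a cell type's markers were added up, and across these libraries the 9 neutrophil markers summed to between 15969 and 22633 CPM (read counts scaled to a common library size), 5 monocyte markers between 2534 and 3229 CPM and 6 macrophage markers between 767 and 924 CPM, whereas 6 B cell markers reached between 19.1 and 27.2 CPM. Markers of T and NK cells and of erythroid cells were mostly below the filter, with 2 of 5 and 1 of 4 genes tested.

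The promoters of *Irf8* and *Gfi1* are shown because these 2 factors had the changes of largest size among those that passed the test at 50 µM. RefSeq (GRCm38.p6) held promoter entries for 6 of the 9 factors, and *Spi1*, *Cebpe* and *Maf* are named only. The 250 bases before the *Irf8* start lie at chr8:120736108-120736357 on the plus strand, outside the exons of the gene, and capitals mark the GFI1 motif read on the opposite strand.
Irf8: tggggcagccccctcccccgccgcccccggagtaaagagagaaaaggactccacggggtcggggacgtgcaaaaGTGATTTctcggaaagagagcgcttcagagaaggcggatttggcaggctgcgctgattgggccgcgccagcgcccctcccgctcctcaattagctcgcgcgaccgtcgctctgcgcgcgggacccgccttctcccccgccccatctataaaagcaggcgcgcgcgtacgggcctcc
The 149 bases before the *Gfi1* start lie at chr5:107725806-107725954 on the minus strand, in the intron of a longer annotated transcript, and capitals mark the C/EBP motif, which overlaps a MAF motif.
Gfi1: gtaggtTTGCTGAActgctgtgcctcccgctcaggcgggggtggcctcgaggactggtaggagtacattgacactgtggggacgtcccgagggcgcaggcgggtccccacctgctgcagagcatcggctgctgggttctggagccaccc
Motifs were searched on both strands, from 250 bases before to 50 after each start. The GFI1 motif AAATCAC was found in 3.20% of 32544 promoters and the C/EBP motif TTGCNNAA in 10.8%. The MAF motif TGCTGA was found in 19.5%, the PU.1 motif GAGGAA in 28.1%, the ETS motif CGGAAG in 17.0%, the RUNX motif TGTGGT in 16.7% and an IRF motif, GAAA and GAAA with 2 bases between them, in 3.45%. The GFI1 match of *Irf8* lay from 176 to 170 bases before the start, and the C/EBP match of *Gfi1* from 143 to 136 bases before it. Both genes had a second entry for another start, with a MAF motif from 157 to 152 bases before that of *Irf8* and an ETS motif from 10 to 15 bases after that of *Gfi1*. *Runx1* held 2 RUNX motifs after 1 of its starts and a PU.1 motif before the other, and *Cebpa*, *Cebpb* and *Elk3* held none of the 7 motifs in this window. These matches describe letters and say nothing of binding in these cells.

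Per kilobase of exon, *Spi1* was the most abundant of the 9 factors in every group. With vehicle its level was 176 ± 10.8 CPM per kilobase (SD, n = 4, as for all group values here), and over the 12 libraries it lay above 98.1% of the genes tested. *Cebpe* followed at 87.5 ± 8.70 CPM per kilobase. *Cebpa* at 35.9 ± 4.28 and *Cebpb* at 33.3 ± 1.10 CPM per kilobase overlapped. *Runx1*, *Gfi1*, *Elk3* and *Irf8* lay between 13.3 and 12.3 CPM per kilobase, with each overlapping the next. *Maf* was lowest, at 1.06 ± 0.102 CPM per kilobase, and lay above 27.4% of the genes tested over the 12 libraries. At 50 µM *Irf8*, at 16.2 CPM per kilobase, stood above *Elk3* (12.9), *Runx1* (11.4) and *Gfi1* (8.97 CPM per kilobase), with no overlap between *Irf8* and *Elk3*.

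**Figure D1:**
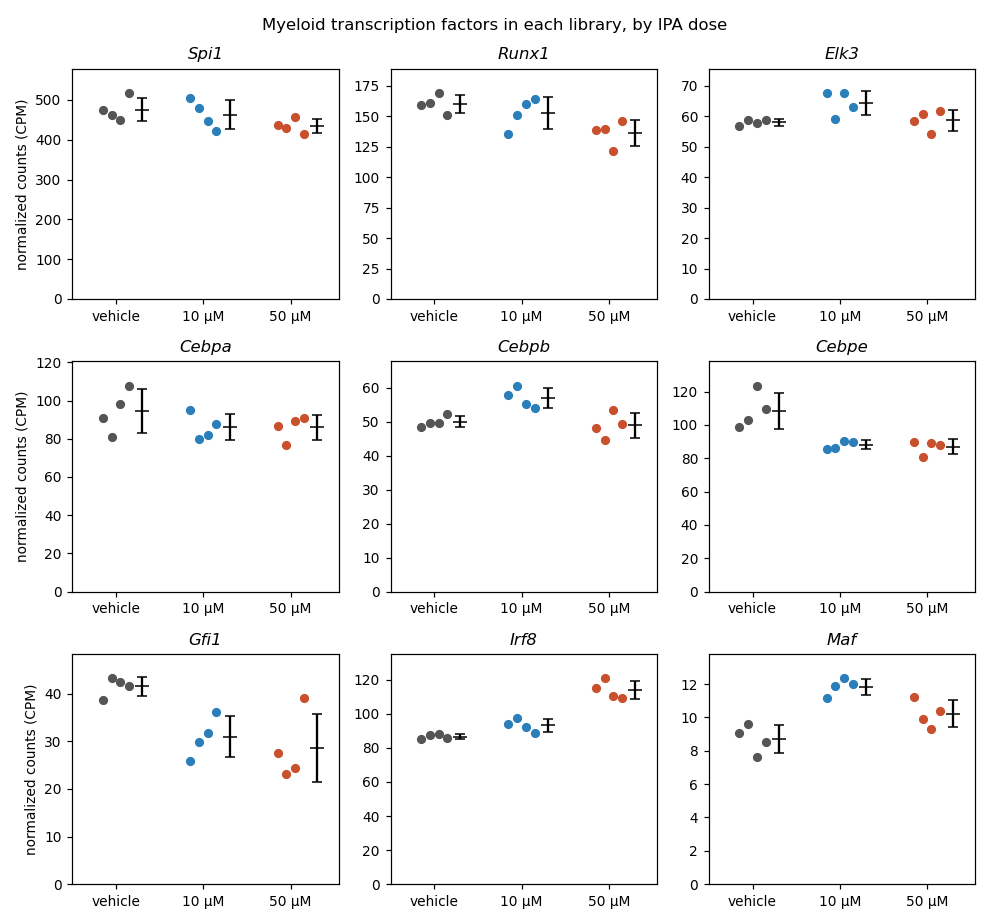
Normalized counts (CPM, y axis from 0) of the 9 factors in each of the 12 libraries, by dose (x axis); each point is a library, and the bar beside it is the mean ± SD of 4. *Irf8* lay between 109 and 121 CPM at 50 µM, above every other library, whereas *Cebpe* and *Gfi1* were lower on average at both doses than with vehicle.

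*Irf8* rose and *Cebpe* and *Gfi1* fell at 50 µM IPA, and no factor passed the test at 10 µM. At 50 µM, 1 of 9 factors was higher and 2 were lower than with vehicle by edgeR's quasi-likelihood test at an adjusted p under 0.05, while 13.5% of all genes tested were called (7.00% higher and 6.50% lower). At 10 µM, 0 of 9 factors were called, against 0.410% of all genes tested (0.329% higher and 0.0806% lower). By an unadjusted p under 0.05, 5 of the 9 factors (8.78% of all genes) passed at 10 µM, and DESeq2 called 3 of them at an adjusted p under 0.05, as it called 1.68% of all genes. At 50 µM, 4 of the 9 factors had an unadjusted p under 0.05, as had 27.9% of all genes. The groups did not overlap for 6 factors at 10 µM, 4 higher and 2 lower, while they did not overlap for 6.13% of all genes tested (3.57% higher and 2.56% lower). At 50 µM they did not overlap for 3 factors, 1 higher and 2 lower, against 20.0% of all genes (9.45% higher and 10.5% lower). The median log2 fold change over the 9 factors was -0.04 at 10 µM and -0.12 at 50 µM, and over all genes tested -0.01 and 0.01.

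**Figure D2:**
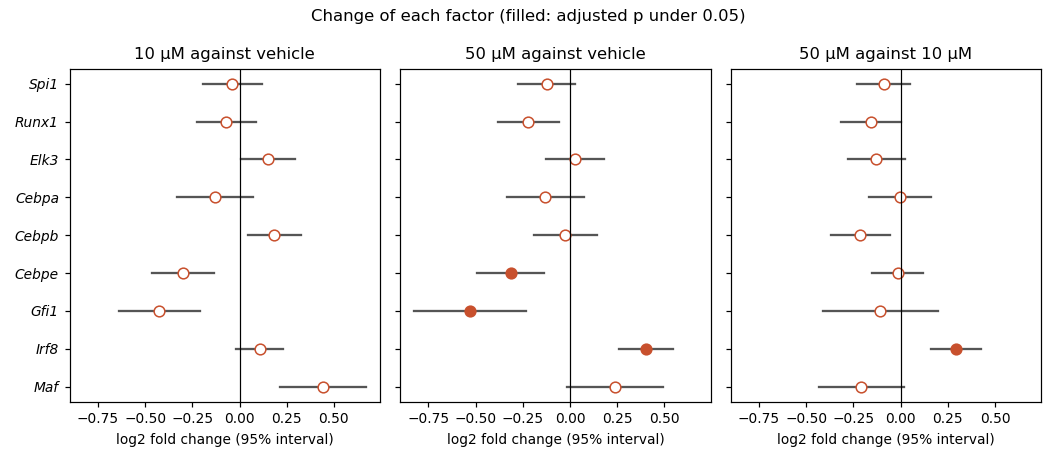
Log2 fold change (x axis) of the 9 factors in the 3 comparisons, with the 95% interval as a line and filled points for an adjusted p under 0.05 by edgeR. *Irf8* is filled in both comparisons of 50 µM, at 0.40 and 0.29, and *Cebpe* and *Gfi1* only in that of 50 µM with vehicle.

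*Spi1* encodes PU.1, the ETS factor without which neither macrophages nor neutrophils form. It lies at chr2:91082390-91115756 on the plus strand (GRCm38; ENSMUSG00000002111) and had between 8949 and 13902 counts per library. Its level was 476 ± 29.0 CPM with vehicle, 463 ± 36.3 CPM at 10 µM and 434 ± 18.1 CPM at 50 µM. The libraries of the 3 groups overlapped. The log2 fold change against vehicle was -0.04 at 10 µM, with a 95% interval from -0.20 to 0.12, and -0.12 at 50 µM, with an interval from -0.27 to 0.03 (adjusted p = 0.937 and 0.273).

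*Runx1*, at chr16:92601466-92826149 on the minus strand (ENSMUSG00000022952), encodes the DNA-binding partner of CBFβ. With vehicle its libraries lay at 159, 161, 169 and 151 CPM. At 50 µM they lay at 139, 140.0, 122 and 146 CPM, each below every library with vehicle. The log2 fold change at 50 µM was -0.22 (SE 0.0747, adjusted p = 0.0670), which missed the threshold, whereas DESeq2 gave an adjusted p of 0.0280 and a fit of all 12 libraries one of 0.0446. At 10 µM the level was 153 ± 12.8 CPM, with a log2 fold change of -0.07 (adjusted p = 0.878).

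*Elk3*, at chr10:93247414-93311135 on the minus strand (ENSMUSG00000008398), was measured at 58.0 ± 1.05 CPM with vehicle, 64.4 ± 4.06 CPM at 10 µM and 58.7 ± 3.43 CPM at 50 µM. The libraries at 10 µM, between 59.1 and 67.6 CPM, all lay above those with vehicle, between 56.7 and 58.9 CPM. Against vehicle it had a log2 fold change of 0.15 at 10 µM (SE 0.0652, adjusted p = 0.524) and 0.03 at 50 µM (adjusted p = 0.854). *Elk3* shares 316 exon bases with *Cdk17* on the opposite strand, and the strand setting of the counting is not given in the sources used here.

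The 3 C/EBP members bind the same motif and act at successive steps, C/EBPα in progenitors, C/EBPε in maturing granulocytes and C/EBPβ under inflammatory demand. *Cebpa*, at chr7:35119293-35121928 on the plus strand (ENSMUSG00000034957), gave 94.5 ± 11.3 CPM with vehicle, 86.3 ± 6.81 CPM at 10 µM and 86.0 ± 6.41 CPM at 50 µM. All groups overlapped. Against vehicle, the log2 fold change was -0.13 at either dose, with a 95% interval from -0.33 to 0.07 at both (adjusted p = 0.786 and 0.408).

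*Cebpe* was lower at 50 µM than with vehicle. It lies at chr14:54710360-54712174 on the minus strand (ENSMUSG00000052435), and no gene of the annotation shares its exons. With vehicle its libraries lay at 98.7, 103, 123 and 109 CPM. At 10 µM they lay at 85.7, 86.2, 90.6 and 90.0 CPM and at 50 µM at 89.8, 80.6, 89.2 and 88.2 CPM. Every library with IPA was thus below every library with vehicle. At 50 µM its log2 fold change was -0.31 (SE 0.0825, 95% interval from -0.49 to -0.14, adjusted p = 0.0231), a fold of 0.805. At 10 µM it was of like size, -0.30 (SE 0.0750), but missed the threshold (adjusted p = 0.150, and 0.0202 with DESeq2). The call at 50 µM was kept in 5 of 8 fits that left out 1 library, and it was lost when replicate 3 of the vehicle group (adjusted p = 0.0906) or, at 50 µM, replicate 2 (0.0735) or replicate 4 (0.0559) was left out.

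*Cebpb*, at chr2:167688915-167690418 on the plus strand (ENSMUSG00000056501), was highest at 10 µM. Its libraries lay at 48.5, 49.7, 49.6 and 52.4 CPM with vehicle. At 10 µM they lay at 57.8, 60.6, 55.3 and 53.9 CPM, above all of the vehicle group, and at 50 µM at 48.3, 44.7, 53.6 and 49.4 CPM. The libraries at 50 µM overlapped those with vehicle and lay below those at 10 µM. None of its comparisons passed the test. The log2 fold change was 0.18 at 10 µM (SE 0.0647, adjusted p = 0.370), -0.02 at 50 µM (adjusted p = 0.879) and -0.21 at 50 µM against 10 µM (SE 0.0744, adjusted p = 0.0653). This last comparison passed with DESeq2 (adjusted p = 0.0406), with an offset for exon length (0.0222) and when replicate 3 at 50 µM was left out (0.0294). *Cebpb* shares 312 exon bases with *Tmem189* on the opposite strand, which had 36158 counts over the 12 libraries against 15029 for *Cebpb*.

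*Gfi1* fell furthest among the 9 factors at 50 µM. It encodes a zinc finger repressor that silences monocyte genes in granulocyte precursors, and lies at chr5:107716657-107726036 on the minus strand (ENSMUSG00000029275). With vehicle its libraries lay close together at 38.7, 43.2, 42.5 and 41.7 CPM. At 10 µM they lay at 25.8, 29.9, 31.8 and 36.2 CPM, all below the vehicle group, and at 50 µM at 27.6, 23.2, 24.5 and 39.1 CPM. Replicate 4 of the 50 µM group alone lay within the vehicle range. The log2 fold change was -0.53 at 50 µM (SE 0.137, 95% interval from -0.82 to -0.23, adjusted p = 0.0213), a fold of 0.693, and -0.43 at 10 µM (SE 0.0979, adjusted p = 0.108). DESeq2 called the change at 10 µM (adjusted p = 0.00897). When replicate 4 at 50 µM was left out, the log2 fold change at that dose was -0.72 (adjusted p = 0.000716). The call was lost when replicate 3 of the vehicle group was left out (adjusted p = 0.0611), and when replicate 1, 2 or 3 at 50 µM was (0.0532, 0.0687 and 0.0676). *Gfi1* shares 101 exon bases with a transcript on the opposite strand that had 273 counts in all, against 9780 for *Gfi1*.

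*Irf8* was the factor with the smallest adjusted p at 50 µM. The gene, at chr8:120736358-120756694 on the plus strand (ENSMUSG00000041515), shares no exon with another gene, and the promoter printed above ends just before its first base. With vehicle its libraries lay at 85.2, 87.4, 88.1 and 85.7 CPM. At 10 µM they lay at 94.2, 97.6, 92.4 and 88.7 CPM and at 50 µM at 115, 121, 111 and 109 CPM. The 3 groups did not overlap. The log2 fold change was 0.40 at 50 µM (SE 0.0661, 95% interval from 0.26 to 0.55, adjusted p = 0.00142), a fold of 1.32, and 0.29 at 50 µM against 10 µM (SE 0.0629, adjusted p = 0.00491). Both calls held in each of the 8 fits that left out 1 library, with adjusted p-values of at most 0.0102 and 0.0250. At 10 µM the log2 fold change against vehicle was 0.11, with a 95% interval from -0.02 to 0.23 (adjusted p = 0.668).

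*Maf* differed most from vehicle at the lower dose. It lies at chr8:115682942-115707794 on the minus strand (ENSMUSG00000055435) and had between 170 and 328 counts per library, the fewest of the 9 factors. With vehicle its libraries lay at 9.08, 9.58, 7.62 and 8.51 CPM. At 10 µM they lay at 11.2, 11.9, 12.3 and 12.0 CPM, all above the vehicle group, and at 50 µM at 11.2, 9.93, 9.32 and 10.4 CPM. Its log2 fold change was 0.44 at 10 µM (SE 0.104, adjusted p = 0.115, and 0.0222 with DESeq2) and 0.24 at 50 µM, with a 95% interval from -0.01 to 0.49 (adjusted p = 0.205). Neither passed the main test.

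Between the doses, *Irf8* alone passed the test, while 15.4% of all genes tested were called at 50 µM against 10 µM (7.52% higher and 7.85% lower). The groups did not overlap for *Irf8*, which was higher, and *Cebpb*, which was lower, against 20.3% of all genes (9.43% higher and 10.9% lower). The same 2 factors had an unadjusted p under 0.05, as had 29.5% of all genes tested. *Cebpe* stood at about the same level at both doses, with a log2 fold change of -0.02 and a 95% interval from -0.15 to 0.12. For *Gfi1* the interval was wider, from -0.41 to 0.20 around -0.11. *Maf* had a log2 fold change of -0.21 (95% interval from -0.43 to 0.02), and *Runx1* one of -0.16 (from -0.32 to 0.0035). A fit with an offset for exon length gave *Runx1* an adjusted p of 0.0458 here, against 0.180 without it.

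The balance between factors was read as a ratio of counts within each library, which does not depend on the scaling between libraries. The log2 ratio of *Irf8* to *Cebpe* was -0.32 ± 0.13 with vehicle, 0.08 ± 0.09 at 10 µM and 0.39 ± 0.13 at 50 µM. The 4 libraries with vehicle lay between -0.49 and -0.21, those at 10 µM between -0.02 and 0.18 and those at 50 µM between 0.31 and 0.58, so that the groups did not overlap. The log2 ratio of *Irf8* to *Gfi1* was 1.06 ± 0.05, 1.60 ± 0.25 and 2.02 ± 0.38 in the same order. Both doses lay above vehicle, and they overlapped each other. The log2 ratio of *Spi1* to *Cebpa*, the 2 factors that open the myeloid program, was 2.34 ± 0.14, 2.42 ± 0.13 and 2.34 ± 0.12, with all groups overlapping. That of *Cebpb* to *Cebpa* was -0.91 ± 0.15, -0.60 ± 0.15 and -0.81 ± 0.06, and its groups at 10 µM and 50 µM did not overlap. These ratios are given without a test.

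**Figure D3:**
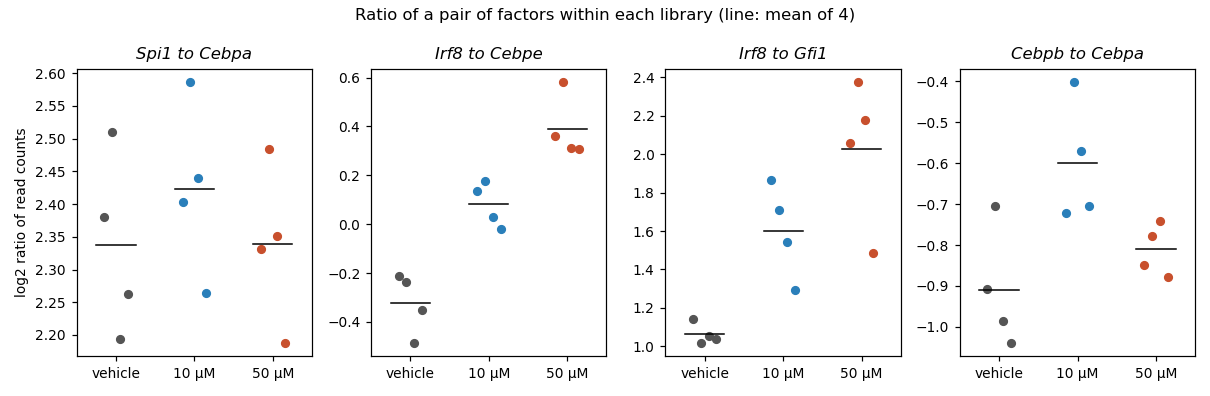
Log2 ratio of read counts (y axis, a separate scale in each panel) for 4 pairs of factors in each library, by dose (x axis), with a line at the mean of 4 libraries. The ratio of *Irf8* to *Cebpe* separates the 3 groups, with means of -0.32, 0.08 and 0.39, while that of *Spi1* to *Cebpa* does not separate them.

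Genes listed as relatives of the 9 factors were read beside them, and 31 of the 34 listed genes reported here were tested. They were listed by family, except for *Cebpz*, listed by its symbol, and *Cbfb*, listed as a partner. At 10 µM, 0 of these 31 were called by edgeR or by DESeq2, and 4 had an unadjusted p under 0.05 by edgeR, as did 8.78% of all genes tested. At 50 µM 4 were higher and 4 lower than with vehicle, where 7.00% of all genes were higher and 6.50% lower. Between the doses 5 were higher and 6 lower at 50 µM, beside 7.52% and 7.85% of all genes. These shares over all genes also stand behind the counts in the lists that follow. The IRF family, whose members drive interferon and immune cell programs, had 2 of 7 relatives of *Irf8* higher at 50 µM and 0 lower. *Irf4*, which shapes dendritic cells, plasma cells and alternatively activated macrophages, rose from 111 ± 8.70 to 158 ± 8.76 CPM at 50 µM, a log2 fold change of 0.52 (SE 0.0758, adjusted p = 0.000639). *Irf5*, which drives inflammatory cytokine genes, rose from 258 ± 15.9 to 377 ± 23.6 CPM, by 0.56 on the log2 scale (SE 0.0728, adjusted p = 0.000285). Against 10 µM, *Irf1* was also higher (log2 fold change 0.39, adjusted p = 0.00655) and *Irf7* lower (-0.37, adjusted p = 0.0374). Dropping 1 library at a time kept the call of *Irf7* in 4 of 8 fits. Its adjusted p was highest without replicate 2 at 50 µM (0.116).

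The ETS relatives of *Spi1* and *Elk3* lay mostly below vehicle at 50 µM. Of 13 tested, 12 had a log2 fold change below 0, 3 passed the test as lower and 1 as higher, and their median was -0.14 against 0.01 over all genes. *Spib*, the closest relative of PU.1 and known from B cells and plasmacytoid dendritic cells, was the one that rose, from 8.99 ± 0.216 to 17.0 ± 1.43 CPM, by 0.92 on the log2 scale (SE 0.102, adjusted p = 8.24e-05). *Ets1*, a lymphoid and stromal ETS factor, fell from 97.6 ± 9.97 to 57.4 ± 4.89 CPM, by 0.76 on the log2 scale (SE 0.0916, adjusted p = 0.000165). *Etv6* and *Gabpa* each had a log2 fold change of -0.29 (adjusted p = 0.0302 and 0.0231). Dropping 1 library at a time kept these calls in 3 and 6 of 8 fits, and dropping replicate 3 of the vehicle group lost both (adjusted p = 0.102 and 0.0775). The replicate block also ended the call of *Etv6* (adjusted p = 0.0536). No ETS relative was called at 10 µM.

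Of the 4 genes listed under C/EBP, 1 rose and 1 fell at 50 µM. *Cebpd*, induced in acute inflammation, fell from 55.3 ± 4.80 to 38.2 ± 3.43 CPM, by 0.53 on the log2 scale (adjusted p = 0.00202). *Ddit3*, the CHOP protein of the integrated stress response, rose from 7.55 ± 1.21 to 14.9 ± 3.38 CPM, by 0.99 on the log2 scale (adjusted p = 0.00199). Of the RUNX group, *Cbfb*, which encodes the partner of RUNX1, was lower at 50 µM than at 10 µM (log2 fold change -0.32, adjusted p = 0.00490). *Gfi1b*, the paralog of *Gfi1*, had a log2 fold change of -0.27 at 50 µM and was not called.

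**Figure D4:**
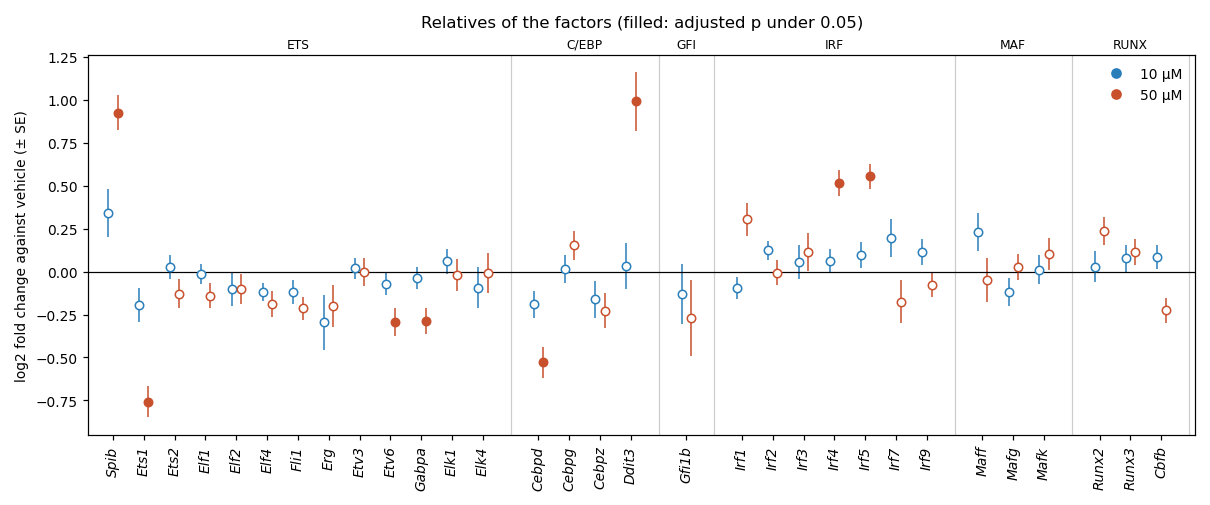
Log2 fold change against vehicle (y axis, ± SE) of 31 tested relatives by family (x axis), at 10 µM and 50 µM, with filled points for an adjusted p under 0.05 by edgeR. *Irf4* and *Irf5* are filled above 0 at 50 µM, and 12 of 13 ETS relatives lie below 0 at that dose.

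Other regulators of myeloid cells and progenitors moved in both directions at 50 µM. Of 38 listed, 37 were tested. At 10 µM 0 were called by edgeR and 7 by DESeq2, which called 1.68% of all genes tested. By edgeR, 12 had an unadjusted p under 0.05 at 10 µM, and at 50 µM 8 were higher and 10 lower. Of the 16 macrophage and dendritic regulators, 5 were higher and 3 lower. *Batf3*, needed for cross-presenting dendritic cells in which IRF8 also acts, rose from 6.43 ± 0.731 to 14.7 ± 1.08 CPM (1.20 on the log2 scale, adjusted p = 3.55e-05). At 10 µM its libraries, between 8.56 and 10.8 CPM, also lay above those with vehicle, between 5.51 and 7.30 CPM. DESeq2 called *Batf3* at that dose (adjusted p = 0.00110). *Egr2* rose from 93.3 ± 12.0 to 144 ± 11.7 CPM (0.63, adjusted p = 0.000830). *Klf4*, which supports monocytes, fell from 35.2 ± 2.60 to 23.2 ± 3.12 CPM (-0.59, adjusted p = 0.00203). At 10 µM it stood at 43.4 ± 1.10 CPM, with every library above those with vehicle (0.30, adjusted p = 0.125 by edgeR and 0.0202 by DESeq2). *Pparg*, a lipid-sensing receptor of alveolar macrophages, fell from 32.6 ± 3.95 to 20.2 ± 2.65 CPM (-0.68, adjusted p = 0.00165).

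Among 14 tested regulators of progenitors and other lineages, 2 were higher and 5 lower at 50 µM. *Gata2*, a factor of stem cells, mast cells and basophils, rose from 46.1 ± 3.54 to 102 ± 7.44 CPM (1.15 on the log2 scale, adjusted p = 3.00e-06). *Zfpm1*, which encodes the GATA partner FOG1, rose from 11.4 ± 1.82 to 20.3 ± 1.83 CPM (0.85, adjusted p = 0.000579). *Myb*, which keeps progenitors dividing, fell from 54.3 ± 3.19 to 36.1 ± 4.84 CPM (-0.58, adjusted p = 0.00176), and *Hlf*, a stem cell factor, fell from 7.30 ± 0.665 to 3.49 ± 0.702 CPM (-1.06, adjusted p = 0.00109). Of the 7 granulocyte regulators, 1 was higher and 2 were lower. *Lef1*, whose loss marks congenital neutropenia, rose from 1.81 ± 0.733 to 3.67 ± 0.423 CPM (1.02, adjusted p = 0.0205). Dropping 1 library at a time kept the call of *Lef1* in 4 of 8 fits. Its adjusted p was highest without replicate 3 of the vehicle group (0.0640). *Klf5* fell from 22.6 ± 1.27 to 15.5 ± 2.36 CPM (-0.54, adjusted p = 0.00702).

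Genes known as targets of the factors were counted by factor, and 27 of 28 listed were tested. At 10 µM 1 was higher and 0 lower by edgeR, where 0.329% of all genes were higher and 0.0806% lower. DESeq2 called 6 at that dose, where it called 1.68% of all genes, and the fit with the replicate block called 0. At 50 µM 4 were higher and 13 lower than with vehicle, and at 50 µM against 10 µM 2 were higher and 14 lower. Their median log2 fold change at 50 µM was -0.20, against 0.01 over all genes tested. The 4 targets of C/EBPα all fell at 50 µM, although *Cebpa* itself was not called. *Elane*, neutrophil elastase, fell from 343 ± 81.4 to 140 ± 31.4 CPM, with a log2 fold change of -1.29 (SE 0.174, adjusted p = 0.000355). *Mpo*, myeloperoxidase, fell from 622 ± 108 to 305 ± 65.0 CPM (-1.02, adjusted p = 0.000622). *Prtn3*, proteinase 3, fell by 0.95 on the log2 scale (adjusted p = 0.000351). *Csf3r*, the G-CSF receptor, which is named here after its values were seen, fell by 0.36 (adjusted p = 0.0279). Dropping 1 library at a time kept the call of *Csf3r* in 4 of 8 fits. Its adjusted p was highest without replicate 2 at 50 µM (0.0889).

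Of the 4 targets of C/EBPε, which encode proteins of the secondary granules of neutrophils, 3 fell at 50 µM. *Ltf*, lactoferrin, had a log2 fold change of -0.68 (SE 0.0911, adjusted p = 0.000335) and *Camp*, cathelicidin, one of -0.61 (SE 0.125, adjusted p = 0.00593). At 10 µM all 4 had log2 fold changes below 0, with a median of -0.27. Of these, edgeR called 0, 3 had an unadjusted p under 0.05, and DESeq2 called 1, *Lcn2*, which encodes lipocalin 2 and is named after its values were seen (log2 fold change -0.34, adjusted p = 0.114 by edgeR and 0.00733 by DESeq2). Of 5 targets of PU.1, 1 was higher and 3 were lower at 50 µM. *Fcgr1*, a high-affinity IgG receptor, fell from 116 ± 6.49 to 80.2 ± 12.9 CPM (-0.52, adjusted p = 0.00625). The others, named after their values were seen, were *Csf1r*, the M-CSF receptor (-0.34), *Cybb*, the oxidase subunit gp91phox (-0.36), and *Itgam*, the integrin CD11b, which was the higher one (0.31).

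Of 3 targets of C/EBPβ reported here, 0 were higher and 2 lower at 50 µM. *Nos2*, the inducible nitric oxide synthase, fell from 23.2 ± 17.3 CPM with vehicle to 4.13 ± 2.09 CPM at 50 µM (-2.50, SE 0.523, adjusted p = 0.00705). At 10 µM it stood at 46.8 ± 19.2 CPM, with a log2 fold change of 1.02 that did not pass the test (SE 0.477, adjusted p = 0.580). Its 4 libraries with vehicle were spread from 6.73 to 44.5 CPM, and those at 10 µM from 27.6 to 72.8 CPM. *Ptgs2*, which makes prostaglandins, fell from 11.7 ± 1.77 to 5.42 ± 0.555 CPM (-1.10, adjusted p = 0.000217).

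Of 3 genes that GFI1 is known to repress, 2 rose and 1 fell at 50 µM. *Csf1*, the gene for M-CSF, rose from 91.5 ± 12.8 to 187 ± 7.55 CPM, with a log2 fold change of 1.04 (SE 0.0938, adjusted p = 1.47e-05). *Nab2* was the other that rose (0.30) and *Id1* the one that fell (-0.48), both named after their values were seen, and their calls were kept in 3 and 4 of 8 fits that left out 1 library. The call of *Nab2* was also lost with the replicate block (adjusted p = 0.0662) and without a filter (adjusted p = 0.0770). Of 3 tested targets of IRF8, 0 were called at either dose. Of 3 tested targets of c-MAF, the complement gene *C1qb* was higher at 10 µM, rising from 134 ± 6.09 to 182 ± 20.5 CPM (0.44, adjusted p = 0.0473). This call was kept in 2 of 8 fits that left out 1 library, those that dropped replicate 4 at either 10 µM or vehicle, and reached an adjusted p of 0.209 when replicate 2 at 10 µM was left out and 0.233 with the replicate block. DESeq2 called all 3 at 10 µM. For this group, at 50 µM 0 were called against vehicle, and all 3 were lower at 50 µM than at 10 µM. Without replicate 4 at 50 µM, 2 of these calls between the doses were lost, those of *C1qb* (adjusted p = 0.0902) and *C1qc* (adjusted p = 0.0548, named after its values were seen), and *C1qb* kept its call in 4 of 8 fits that left out 1 library. Of 2 listed for ELK3, *Egr1* was higher at 50 µM than with vehicle (0.44, adjusted p = 0.00777) and than at 10 µM (0.66, adjusted p = 0.000210). At 10 µM its log2 fold change against vehicle was -0.23 (adjusted p = 0.469).

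**Figure D5:**
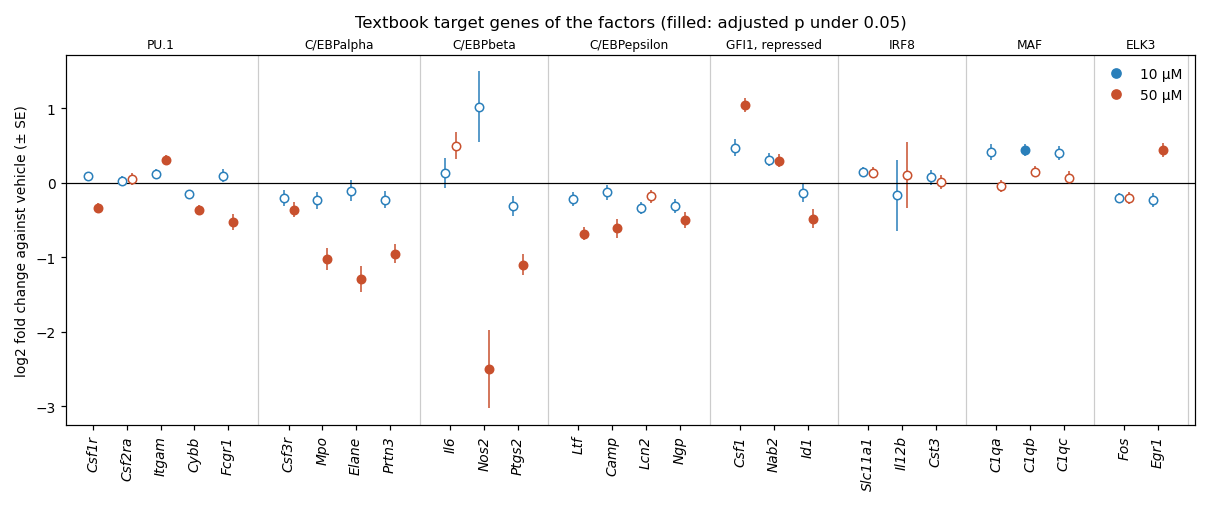
Log2 fold change against vehicle (y axis, ± SE) of 27 target genes grouped by the factor they are known to follow (x axis), at 10 µM and 50 µM, with filled points for an adjusted p under 0.05 by edgeR. All 4 C/EBPα targets lie below 0 and are filled at 50 µM. Of the genes that GFI1 represses, *Csf1* and *Nab2* are filled above 0 at that dose and *Id1* below 0.

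Several of these genes are also markers of a cell type, and marker levels moved beside the factors. Promyelocytes make the granule enzymes named above, and their 5 markers summed to between 1624 and 2347 CPM with vehicle and between 776 and 1109 CPM at 50 µM, with 5 of 5 lower. The 9 neutrophil markers summed to between 15969 and 22633 CPM with vehicle and between 12183 and 16844 CPM at 50 µM, with 4 lower. Neither list held a marker that was called higher at that dose. The neutrophil markers that were not called, given to complete the list, went both ways at 50 µM. Their log2 fold changes were 0.24 (*Ly6g*), 0.16 (*Mmp8*), -0.37 (*S100a8*), -0.37 (*S100a9*) and -0.27 (*Retnlg*). The 5 monocyte markers summed to between 2534 and 3229 CPM with vehicle, to between 3673 and 4747 CPM at 10 µM, with 1 higher, and to between 2213 and 2953 CPM at 50 µM, with 3 lower than vehicle. The 6 macrophage markers summed to between 767 and 924 CPM with vehicle, to between 1036 and 1169 CPM at 10 µM, with 2 higher, and to between 969 and 1012 CPM at 50 µM, with 1 higher and 1 lower. The monocyte marker called at 10 µM, named after its values were seen, was *Fn1* (fibronectin), at 1451 CPM with vehicle and 2554 CPM at 10 µM (0.82 on the log2 scale, adjusted p = 0.0102). The other 4, given to complete the list and not called, had log2 fold changes of 0.70 (*F13a1*), 0.54 (*Ccr2*), 0.21 (*Vcan*) and -0.12 (*Ly6c2*) at that dose. The 6 dendritic cell markers summed to between 81.8 and 96.3 CPM with vehicle and between 103 and 132 CPM at 50 µM, with 3 higher. The 6 B cell markers summed to between 19.1 and 27.2 CPM with vehicle and between 37.9 and 60.9 CPM at 50 µM, with 5 higher. For the 4 eosinophil and the 5 mast cell and basophil markers, 0 were called against vehicle at either dose, nor were any of the 2 tested T and NK cell markers or the 1 tested erythroid marker. The 3 megakaryocyte markers summed to between 170 and 195 CPM with vehicle, 184 and 230 CPM at 10 µM and 201 and 227 CPM at 50 µM. Of the 2 that were tested, *Pf4* (platelet factor 4, named after its values were seen) was higher at 50 µM (0.43 on the log2 scale, adjusted p = 0.0138). The other, *Itga2b*, given to complete the list, was not called at either dose. Its log2 fold change was -0.21 at 10 µM and 0.04 at 50 µM (adjusted p = 0.866 at 50 µM), and the untested *Gp1bb* had no counts. *Irf8*, *Spib* and *Irf4* are used by dendritic and B cells, *Cebpe* and *Gfi1* by granulocyte precursors, and *Gata2* and *Zfpm1* by megakaryocytes. The part of these cell types in the levels of the factors and other regulators was not tested.

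For the 3 factors that passed the test, the genes with the most similar profile over the 12 libraries were sought. The measure was the root mean square distance of centred log2 CPM, with 0.5 CPM added before the log. *Mindy1* and *Ubash3b* were nearest to *Irf8*, at 0.0559 and 0.0580, where the median over all genes tested was 0.265. *Fos* and *Tmem248* were nearest to *Cebpe*, at 0.0825 and 0.0840 (median 0.261), and *Sox13* and *Pxylp1* were nearest to *Gfi1*, at 0.143 and 0.145 (median 0.372). *Sox13* lay near the filter on low counts, with means of 1.03, 0.766 and 0.602 CPM with vehicle, at 10 µM and at 50 µM. It was not called in any comparison. The nearest genes lie below the median by their selection.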

How the data were processed

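RNA from the 12 cultures was made into stranded mRNA libraries. According to the methods and the submitters' processing notes, the authors used Atropos for trimming, HISAT2 2.2.1 for alignment to mm10 and featureCounts 2.0.1 for counting on Ensembl genes. The deposited values are raw counts per gene, without normalization or a filter. The strand setting is not given in the sources used here, and genes that share exons on opposite strands may include reads of each other. Groups, doses and replicate numbers were taken from the labels, except for replicate 3 at 10 µM, whose title names replicate 2 and whose number came from the library name.

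Tests covered genes that exceeded 0.5 CPM in 2 or more of 12 libraries. Each pair of groups was compared on its 8 libraries with edgeR 4.0.16 in R 4.3.3 (TMM normalization, quasi-likelihood test, no covariate), and p-values were adjusted by the Benjamini-Hochberg method across every tested gene and called under 0.05. On counts simulated after the comparison of 10 µM with vehicle, edgeR found 195 of 200 changed genes among 14894 and called 5 unchanged ones. DESeq2 found 197 and called 16 unchanged ones. With no change simulated, edgeR called 2 genes and DESeq2 4. The genes simulated as higher had a median log2 fold change of 1.01 by edgeR, larger than that of any factor at 10 µM. How often changes as small as those of the factors are found was therefore not measured. CPM are TMM-normalized over the 12 libraries, and intervals are at the 95% level. Alternatives were DESeq2 1.42.0, limma-voom (limma 3.58.1), DESeq2 size factors, no filter, a minimum of 10 counts in each library, all 12 libraries in the fit, a replicate block, an offset per library for exon length (lowess, span 0.3) and leaving out each library. No library was a copy of another.

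Positions and exon lengths are from GENCODE M21 (GRCm38). The factors and gene lists were chosen with earlier results of these data known. A few genes of these lists are not reported here and were left out of the counts. Named were the 9 factors, for each list and comparison at most the 10 called genes with the largest absolute log2 fold change, and for each factor called against vehicle the 2 genes of most similar profile. Genes outside this rule are said to be named after their values were seen, or stand in a figure with their whole list.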

Additional observations from a re-analysis of the deposited data

How the results depend on the processing

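Over the alternatives other than leaving out a library, 206 of 216 log2 fold changes of the 9 factors kept their direction and their side of the threshold and 10 passed it where the main test did not (at 10 µM *Cebpe*, *Gfi1* and *Maf* with DESeq2 and *Gfi1* without a filter, at 50 µM *Runx1* with DESeq2, all 12 libraries or the offset, between doses *Cebpb* with DESeq2 or the offset and *Runx1* with the offset). The mean CPM of the factors moved by less than 1 SD with DESeq2 size factors in 27 of 27 cases. Among fits that left out 1 library, 199 of 216 kept direction and side, 7 lost the call, 2 gained it and 8 changed sign. The sign changed for *Spi1* at 10 µM (range -0.082 to 0.0052), *Cebpb* at 50 µM (-0.075 to 0.0096), and *Cebpa* (-0.038 to 0.051) and *Cebpe* (-0.031 to 0.019) between the doses. *Runx1* passed at 50 µM without replicate 4 of the vehicle group (adjusted p = 0.0250).

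The count of genes called at 10 µM was 61 in the main test. It was 3 with the replicate block and 4 without replicate 2 at 10 µM, and it was 250 with DESeq2, 150 without a filter, 118 with all 12 libraries in the fit and 104 with the offset for exon length. Other regulators called at 10 µM numbered 0, and 7 with DESeq2, 1 without a filter and 1 with all 12 libraries. Target genes called at 10 µM numbered 1, and 6 with DESeq2, 5 without a filter, 3 with all 12 libraries and 3 with the offset. The cause was not tested.

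Samples of the same replicate number did not deviate together, with correlations from -0.24 to 0.03 at 10 µM, -0.00071 to 0.14 at 50 µM and -0.03 to 0.10 between the doses, and a library correlated best with its own number in 1, 1 and 2 of 4 cases. With the replicate block, 3 genes in all and 0 target genes were called at 10 µM, and no call of a factor changed at either dose or between doses.

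Leaving out 1 library gave 4 to 122 called genes at 10 µM (4 without replicate 2 at 10 µM, 122 without replicate 4 of the vehicle group), 1248 to 2689 at 50 µM and 1604 to 2269 between the doses. In the same order, 0 to 0, 6 to 10 and 8 to 11 family relatives, 0 to 0, 15 to 18 and 11 to 16 other regulators, and 0 to 1, 14 to 17 and 14 to 16 target genes were called. Counts were lowest for *Maf*, with 170 to 328 per library.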
